A study of Mus musculus with 6 samples.

Results

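Bone morphogenetic proteins (BMPs) are secreted growth factors of the TGF-beta superfamily that bind as dimers to pairs of type I and type II receptor kinases, which phosphorylate Smad proteins that then act on target genes. In the developing limb they promote cartilage formation, and in the interzone, the condensed tissue where a joint will form, their activity is held in check by secreted antagonists. The genes described here encode 7 ligands, Bmp2, Bmp3, Bmp4, Bmp5, Bmp6, Bmp7 and Gdf10, and were found by their gene names among the non-control spots of the arrays. They are 7 of 35080 gene names and are covered by 8 of 55681 probes, with 2 probes for Bmp4 and 1 for each of the others.

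The samples were outer interzone and intermediate interzone of mouse embryos at 15.5 days of gestation, with 3 arrays per group and 1 embryo per replicate. Whether an outer and an intermediate sample of equal replicate number came from the same embryo is not stated. The outer interzone is the layer next to the cartilage, and the intermediate interzone is the layer between the outer ones. The labels give no strain, genotype, treatment, sex or joint, and the way in which the layers were isolated is not stated in any source used here. Cy3-labelled cRNA was hybridised to one-colour Agilent arrays, and levels are log2 processed signals from which each array's own 75th percentile was subtracted, so that 0 is that percentile. Levels of different probes are not comparable with each other. Differences are outer minus intermediate. Testing required a probe whose signal was well above background on all 3 outer or all 3 intermediate arrays, and a gene was called where the Benjamini-Hochberg adjusted p of limma over 17994 genes was at most 0.05.

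The 75th percentile lay between 47.4 and 290 signal units on the outer arrays and between 144 and 344 on the intermediate arrays, and outer replicate 1 was the dimmest array, with 35.6% of its spots well above background. Of 5 interzone markers (Gdf5, Wnt9a, Wnt4, Erg and Osr2), 5 were well above background on all 6 arrays. Wnt4 (3.41, limma adjusted p = 0.011) and Erg (0.95, limma adjusted p = 0.0416) were called higher in the outer interzone, and 3 were not called. The summed level of 10 cartilage markers was 532 to 798 times the 75th percentile in outer samples and 60.4 to 109 times in intermediate samples. The sum of 12 leukocyte and macrophage markers was 8.79 to 26.4 in outer and 85.9 to 153 in intermediate samples. Of 8 endothelial markers, 6 were called, all higher in the intermediate interzone, while their summed level overlapped, at 33.4 to 62.7 in outer and 44.7 to 50.7 in intermediate samples. In outer samples most of that sum was the bright Kdr, at 5.91, 4.66 and 5.52 on the log2 scale in replicates 1, 2 and 3. The groups did not overlap for 7 of the 8 markers, all but Kdr. Kdr differed by 0.82 (limma adjusted p = 0.231), and by -0.74 as the mean of its probes. Of 6 markers of maturing cartilage, Col10a1 and Ihh were not well above background on any array, and 4 were on at least 1. Their sum was 6.52 in outer and 12.0 in intermediate replicate 3, against 0.15 to 0.62 in the other outer and 0.13 to 0.23 in the other intermediate samples. In replicate 3 it was mostly 1 gene, Ibsp, at 2.51 in the outer and 3.51 in the intermediate sample on the log2 scale. In such bulk samples, fewer cells of a type and less RNA per cell cannot be told apart.

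The probes are the physical basis of each value, and 5 of them are shown because the results turn on them. Each is 60 bases long, and its first 30 bases are given 5′ to 3′, with unbroken runs of at least 6 A or T bases in capitals.
Bmp5: ATAAAAAgcaggggaatggggaatttccta
Bmp2: cccttccagggggctgatctggccaaagta
Bmp7: gctggcgtctgtgttgaagggaaaccaagc
Bmp4, probe with signal: caaccacctacacataccacacaaactgct
Bmp4, probe without signal: gacAAATATATTTATAActacATATTAAAA
On build mm9, the whole probes lie at chr9:75746444-75746503 (plus strand) for Bmp5, chr2:133388260-133388319 (plus strand) for Bmp2, chr2:172695203-172695262 (minus strand) for Bmp7, and chr14:47003391-47003450 and chr14:47003198-47003257 (minus strand) for Bmp4. Exon and untranslated region annotation of that build was not used here. The remaining probes lie at chr13:38591479-38591538 for Bmp6, chr5:99308890-99308949 for Bmp3 and chr14:34748161-34748220 for Gdf10, all on the plus strand.

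The pair of Bmp4 probes gave unlike readings of 1 gene. The probe with signal read 384 to 2834 units on the outer arrays and 3253 to 5043 units on the intermediate arrays, and it was well above background on all 6. The other probe lies 193 bases nearer the 3′ end of the gene, and read 2.81 to 3.55 units on the outer and 2.96 to 3.30 units on the intermediate arrays, not well above background on any of them. A and T make up 85% of its whole sequence, against 61.7% in the probe with signal. The Bmp2 probe, well above background on all 6 arrays, holds 65% A and T. Its longest unbroken A and T run is 19 bases, mainly beyond the 30 bases shown, against 14 in the Bmp4 probe without signal. The cause of the missing Bmp4 signal was not tested. That Bmp4 probe did not enter the limma test, and every Bmp4 value below comes from the probe with signal.

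Among the ligands, Bmp5 and Bmp2 were higher in the outer interzone, 15.7-fold and 3.83-fold, and were the members that passed the test. The size for Bmp5 is loose, since 1 of 3 intermediate arrays did not measure it well above background, and its log2 difference of 3.97 became 1.85 with normexp background correction and quantile normalization (together called normexp below). Bmp7 and Gdf10 had higher values in all 3 outer samples than in any intermediate sample, without passing. Bmp4 had lower values in all 3 outer samples than in any intermediate sample, also without passing, and Bmp3 and Bmp6 overlapped between the layers. All 7 genes were tested, since each was well above background on all 3 outer arrays, and 5 of them were so on all 6 arrays. Bmp5 and Bmp7 were so on 2 of 3 intermediate arrays, and thus entered the test only through the outer interzone, where they were higher. With a filter on all 6 arrays they were not tested, and Bmp2 was the 1 ligand called, beside 459 of 14798 genes. The 2 called members, both higher in the outer interzone, stand beside 4.06% of all genes called in either direction, 1.57% called higher in the outer and 2.49% called higher in the intermediate interzone. The groups did not overlap for 5 of the 7 members, beside 27.1% of all genes. Of these 5, 4 were higher in the outer interzone (15.6% of all genes) and 1 was lower (11.4% of all genes). The median difference of the members was 1.84, beside 0.10 over all genes. The members were chosen by name, and no test of them as a group was made.

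**Figure D1:**
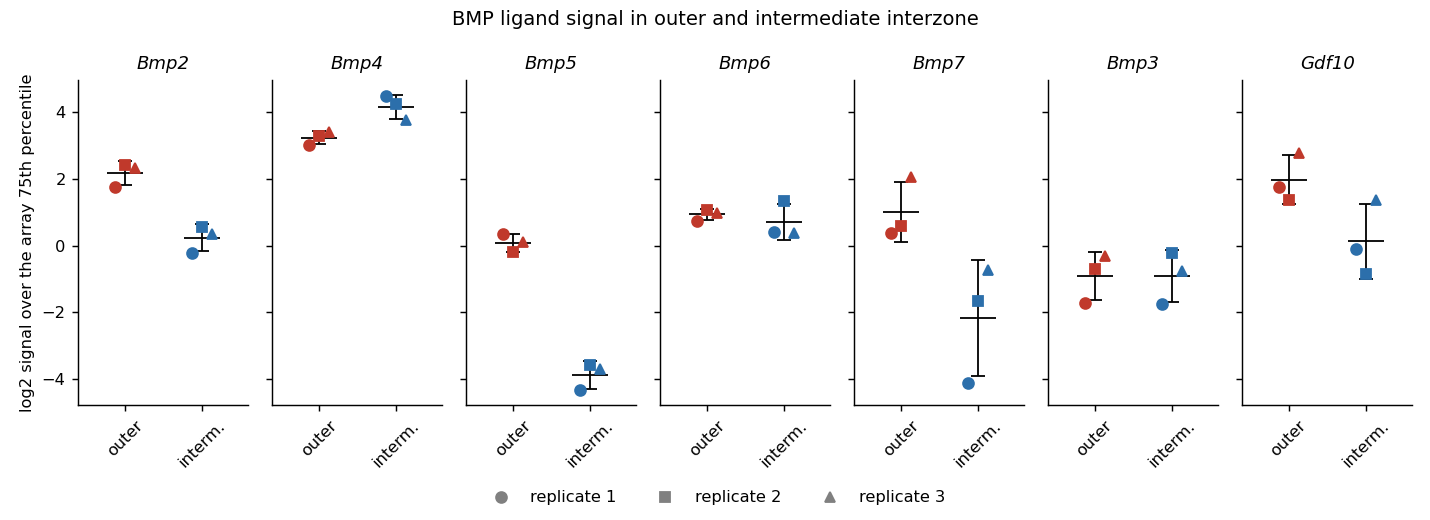
Level of each BMP ligand (log2 signal minus the array's 75th percentile), in outer (red, left) and intermediate (blue, right) interzone, 1 point per array with the replicate number as symbol, and the mean with SD (n = 3) in black. The groups do not overlap for Bmp2, Bmp4, Bmp5, Bmp7 and Gdf10, and overlap for Bmp6 and Bmp3; levels of different panels come from different probes and are not comparable.

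Bmp2 and Bmp4 form the subfamily closest to the fly ligand Dpp, and both drive condensation and differentiation of cartilage precursors. Bmp2 stood at 1.77, 2.43 and 2.34 in outer replicates 1, 2 and 3, and at -0.21, 0.57 and 0.36 in intermediate replicates 1, 2 and 3. The lowest outer value lay above the highest intermediate value by more than the range within either group. Means were 2.18 ± 0.36 in outer samples and 0.24 ± 0.40 in intermediate samples (SD, n = 3 each), which gives a difference of 1.94 (SE 0.28, adjusted p in limma = 0.0181). Among all genes, 99.2% had a lower difference. Between samples with the same replicate number, the difference was 1.98, 1.85 and 1.98. The call ended without outer replicate 3 (limma adjusted p = 0.0746), without intermediate replicate 1 (0.0597) and without intermediate replicate 3 (0.0783), while the difference stayed between 1.71 and 2.14 over the 6 omissions.

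Bmp4 ran opposite to Bmp2 in these samples. It stood at 3.02, 3.29 and 3.40 in outer replicates 1, 2 and 3, and at 4.50, 4.25 and 3.78 in intermediate replicates 1, 2 and 3. The highest outer value was below the lowest intermediate value, by a gap smaller than the range of the intermediate samples. The means were 3.24 ± 0.20 in outer samples and 4.17 ± 0.36 in intermediate samples (SD, n = 3 each). The difference of -0.94 (SE 0.23, 95% interval -1.49 to -0.39) did not pass (limma adjusted p = 0.0792, unadjusted 0.00505). It passed with normexp (-0.94, limma adjusted p = 0.0468), where 5.11% of all genes were called, and not with quantile normalization alone (limma adjusted p = 0.0861). It also passed with each array scaled to its median (-1.33, limma adjusted p = 0.0383), where 6.07% of all genes were called and the median of all genes moved to -0.29. Between same-numbered samples the Bmp4 difference was -1.48, -0.96 and -0.37.

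Bmp5, Bmp6 and Bmp7 form a further subfamily, whose members are expressed in perichondrium, cartilage and many embryonic epithelia. Bmp5, the gene of the short ear mutation in mice, is required for the normal form of several cartilages. Its probe read 60.8, 255 and 161 signal units in outer replicates 1, 2 and 3, and 7.09, 22.0 and 26.5 units in intermediate replicates 1, 2 and 3, of which the first was not well above background. On the log2 scale this was 0.36, -0.18 and 0.10 in the outer samples and -4.35, -3.59 and -3.70 in the intermediate samples. The groups lay far apart relative to the range within each. Means were 0.09 ± 0.27 in outer samples and -3.88 ± 0.41 in intermediate samples (SD, n = 3 each), which gives a difference of 3.97 (SE 0.26, 95% interval 3.35 to 4.58, limma adjusted p = 0.00432). The call held in each of the 6 fits that left out an array, with differences of 3.73 to 4.11. With normexp the difference was 1.85 (limma adjusted p = 0.00176).

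Bmp7, also known as osteogenic protein 1, varied more from sample to sample. It stood at 0.39, 0.59 and 2.05 in outer replicates 1, 2 and 3, and at -4.12, -1.67 and -0.73 in intermediate replicates 1, 2 and 3. Intermediate replicate 1, at 8.29 signal units, was not well above background. Replicate 3 was the highest sample of both groups, as it was for the summed markers of maturing cartilage, a sum that was mostly Ibsp there. The part of those markers in the Bmp7 values was not tested. The means were 1.01 ± 0.91 in outer samples and -2.17 ± 1.75 in intermediate samples (SD, n = 3 each). The difference of 3.18 (SE 0.87, 95% interval 1.12 to 5.25) did not pass (limma adjusted p = 0.102), and it was 1.91 with normexp (limma adjusted p = 0.0631). Between same-numbered samples it was 4.51, 2.26 and 2.78, and Bmp7 passed when the replicate number was a block (SE 0.46, limma adjusted p = 0.0354).

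Bmp6, a ligand of hypertrophic cartilage among other tissues, showed no difference beyond its spread. It stood at 0.74, 1.08 and 0.99 in outer replicates 1, 2 and 3, and at 0.42, 1.34 and 0.38 in intermediate replicates 1, 2 and 3, where replicate 2 was above every outer sample. The means were 0.94 ± 0.17 in outer samples and 0.71 ± 0.54 in intermediate samples (SD, n = 3 each), with a difference of 0.23 and a 95% interval of -0.46 to 0.91 (limma adjusted p = 0.688). Scaling to the array median turned the sign (-0.16, limma adjusted p = 0.789).

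Bmp3 and Gdf10, which is also called BMP3b, form the most divergent pair, and Bmp3 is known to oppose other BMPs in bone. Gdf10 stood at 1.77, 1.37 and 2.79 in outer replicates 1, 2 and 3, and at -0.09, -0.86 and 1.36 in intermediate replicates 1, 2 and 3. The highest intermediate value and the lowest outer value nearly met. Replicate 3 was again the highest sample of both groups, as for the summed markers of maturing cartilage, there mostly Ibsp, and of skeletal muscle. The part of either set of markers in the Gdf10 values was not tested. The means were 1.98 ± 0.74 in outer samples and 0.14 ± 1.13 in intermediate samples (SD, n = 3 each). The difference of 1.84 (SE 0.61, 95% interval 0.41 to 3.27) did not pass (limma adjusted p = 0.15), but did with the replicate number as a block (SE 0.19, limma adjusted p = 0.0272) and not when slide was a further block (1.86, limma adjusted p = 0.0676). Same-numbered samples differed by 1.86, 2.22 and 1.44.

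Bmp3 stood at -1.72, -0.69 and -0.31 in outer replicates 1, 2 and 3, and at -1.75, -0.20 and -0.76 in intermediate replicates 1, 2 and 3. Replicate 1 was the lowest sample of each group, and the groups overlapped almost fully. The means were -0.91 ± 0.73 in outer samples and -0.90 ± 0.78 in intermediate samples (SD, n = 3 each). The difference was -0.0066, with a 95% interval of -1.16 to 1.15 (limma adjusted p = 0.995), an interval that includes differences of more than 1 on the log2 scale in either direction.

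The way the arrays were grouped into replicates and slides bore on these calls. With the replicate number as a block, 4 of the 7 ligands were called, all higher in the outer interzone (Bmp2, Bmp5, Bmp7 and Gdf10), beside 9.08% of all genes called in that fit and 4.65% called higher in the outer interzone. The 3 intermediate arrays shared a slide with outer replicate 1, while outer replicates 2 and 3 were on another. With slide as a block (6.76% of all genes called), Bmp5 differed by 4.24 (limma adjusted p = 0.00724) and Bmp2 by 1.53 (limma adjusted p = 0.0488). Within the slide that held both groups (7.34% of all genes called), Bmp5 was called (limma adjusted p = 0.0063) and Bmp2 was not (limma adjusted p = 0.0601). Bmp7, Gdf10 and Bmp4 differed by 2.56, 1.63 and -1.15 with slide as a block and within that slide, none of them called in either fit (limma adjusted p = 0.238, 0.288 and 0.0827 with the block). Bmp3 and Bmp6 differed by -0.82 and 0.03 in both. Both of these fits take the outer value from the dim outer replicate 1 alone.

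**Figure D2:**
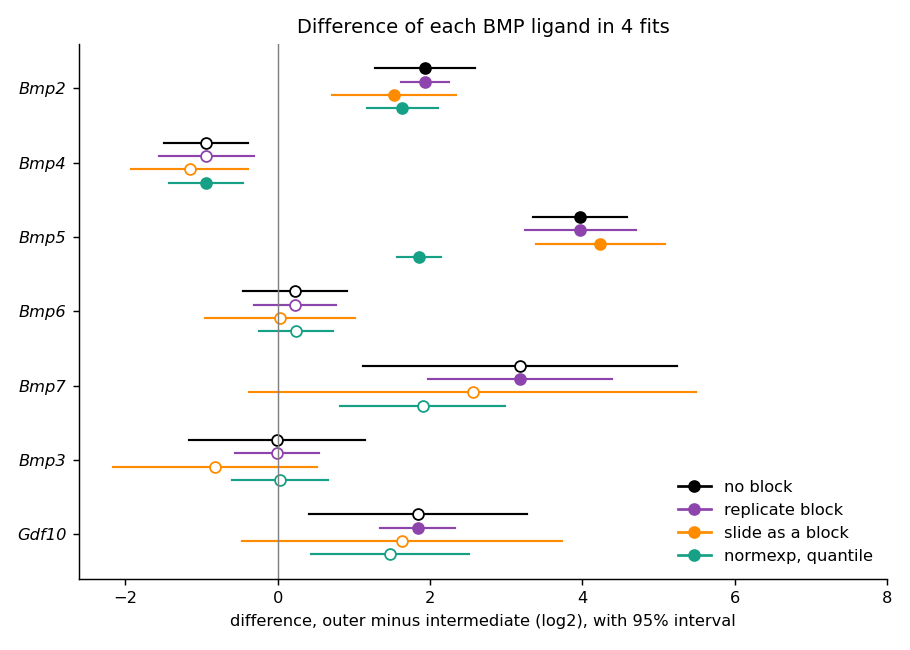
Difference of each BMP ligand, outer minus intermediate interzone on the log2 scale, with its 95% interval from limma in 4 fits (no block, replicate number as a block, slide as a block, and normexp background correction with quantile normalization); filled points have an adjusted p of at most 0.05 over all genes. Bmp2 and Bmp5 are filled in all 4 fits, Bmp7 and Gdf10 with the replicate block, and Bmp4 with normexp.

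Related ligands were then set against each other on the same array, since the ratio of 2 probes does not depend on how the array is scaled. With 3 arrays against 3, the smallest p of the exact permutation test is 0.1, so that no pair could pass 0.05. The log2 ratio of Bmp2 to Bmp4 was -1.25, -0.86 and -1.06 in outer replicates 1, 2 and 3 and -4.70, -3.68 and -3.42 in intermediate replicates 1, 2 and 3. The groups did not overlap, and the ratio differed by 2.87 (two-sided exact p = 0.1, 0.167 adjusted over 5 pairs). These ratios do not say which ligand was more abundant.

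The ratio of Bmp5 to Bmp6 differed by 3.74 and that of Bmp6 to Bmp7 by -2.95, both without overlap (two-sided exact p = 0.1 for each, 0.167 adjusted over 5 pairs), and with normexp by 1.61 and -1.67. Both use a value of intermediate replicate 1 not well above background. The ratio of Bmp5 to Bmp7 differed by 0.79 with overlapping groups (two-sided exact p = 0.5), and by -0.056 with normexp. The ratio of Bmp3 to Gdf10 differed by -1.85, also with overlapping groups (two-sided exact p = 0.2, 0.25 adjusted over 5 pairs). Within the Bmp5, Bmp6 and Bmp7 subfamily, the pairs that include Bmp6 did not overlap between the layers, and the pair without it did.

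**Figure D3:**
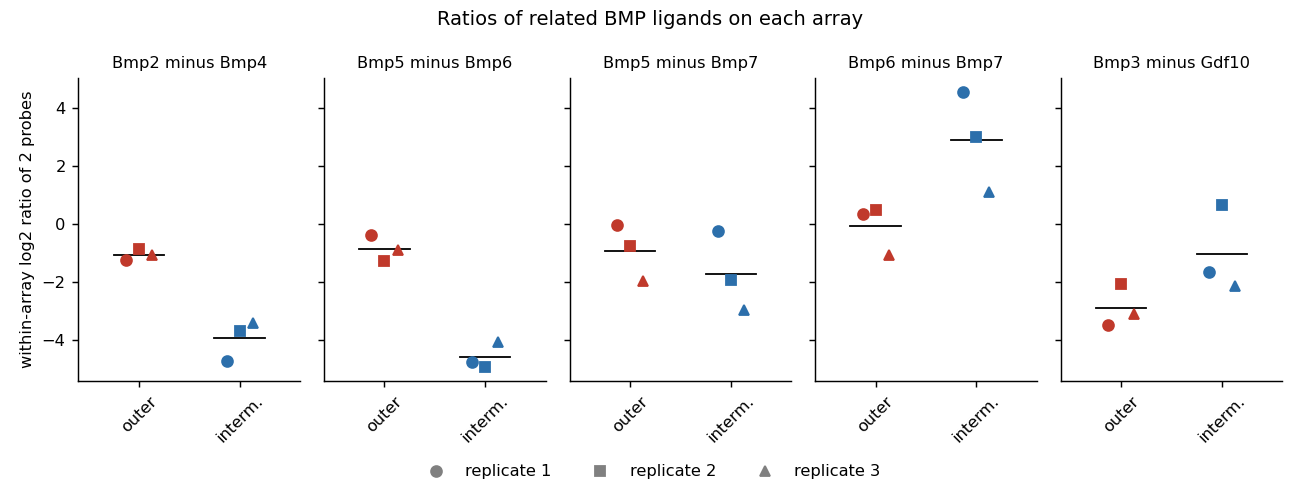
Log2 ratio of related BMP ligand probes on the same array, in outer (red, left) and intermediate (blue, right) interzone, with the replicate number as symbol and the group mean as a line. The ratios of Bmp2 to Bmp4, Bmp5 to Bmp6 and Bmp6 to Bmp7 do not overlap between the groups, and the other 2 do.

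The genes whose pattern over the 6 arrays lay nearest to Bmp2 and Bmp5 were sought among 14768 genes well above background on all arrays. Bmp2 is among these genes and was left out of its own search. The measure was the root mean square distance between log2 values centred on each gene's mean. Nearest to Bmp2 were Sox9, the master transcription factor of chondrocytes (distance 0.145), Mia, a secreted protein of cartilage (0.149), and Rflna (0.177). Sox9 stood at 3.63, 4.13 and 3.86 in outer replicates 1, 2 and 3, and at 1.23, 2.26 and 1.87 in intermediate replicates 1, 2 and 3. Nearest to Bmp5 were Col9a1 (0.272), a collagen IX chain of the cartilage fibril, Hhip (0.309), a hedgehog-binding protein induced by hedgehog signalling, and Col9a3 (0.322). Of the 10 cartilage markers, 9 were called, all higher in the outer interzone, as were Bmp2 and Bmp5. The part of cartilage cells in the differences of the ligands was not tested.

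The rest of the pathway was described from 6 lists of genes. Of 8 tested of 13 other ligands of the family, Gdf6, a joint ligand, was called, at -1.76 ± 0.32 in outer samples and 0.01 ± 0.29 in intermediate samples (SD, n = 3 each), and 3.40-fold lower in outer samples (limma adjusted p = 0.0166). Its probe was above background on 2 of 3 outer arrays, and normexp gave -0.99. The call ended without outer replicate 3 and without intermediate replicates 1 and 3 (limma adjusted p = 0.0702, 0.0655 and 0.0546). The list's median difference was -0.08. None of 6 tested processing proteases was called in limma (median 0.05), and 1 had an unadjusted p under 0.05, beside 21.1% of all genes. They include Bmp1, which despite its name is the protease that cleaves procollagens and the antagonist chordin (-0.11, limma adjusted p = 0.767), and Furin, which cuts BMP precursors (0.20, limma adjusted p = 0.63).

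Of 15 tested of 20 secreted antagonists and modulators, 2 were called, both higher in the outer interzone, and the median was 0.37. Sostdc1, a secreted inhibitor of BMP and Wnt signalling, stood at 2.25 ± 0.44 in outer samples and -1.98 ± 0.86 in intermediate samples (SD, n = 3 each), an 18.8-fold higher level in the outer (adjusted p in limma = 0.00887), or 2.94 on the log2 scale with normexp against 4.23 without. Its call ended without intermediate replicate 3 (limma adjusted p = 0.0524). Bmper, a BMP-binding protein of the extracellular space, stood at 1.98 ± 0.39 in outer samples and -2.12 ± 1.56 in intermediate samples (SD, n = 3 each). The difference was 4.10 (limma adjusted p = 0.031), with Bmper well above background on 2 of 3 intermediate arrays. Its call ended with slide as a block (limma adjusted p = 0.0501), within the slide that held both groups (0.0543), with quantile normalization alone (0.0509), without outer replicates 1 and 3 (0.0618 and 0.0915) and without intermediate replicates 2 and 3 (0.0737 and 0.0572), and with normexp it differed by 2.63. The list had 0 calls without intermediate replicate 3.

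Of 11 tested of 13 receptors and co-receptors, 1 was called in each direction (median 0.22). Bmpr1b, the type I receptor gene of cartilage condensations, was 3.36-fold higher in the outer interzone, at 1.37, 1.52 and 1.37 in outer replicates 1, 2 and 3 and -0.74, 0.12 and -0.36 in intermediate replicates 1, 2 and 3 (limma adjusted p = 0.0173). Acvrl1, a type I receptor gene of endothelium, was 2.64-fold lower in the outer interzone (limma adjusted p = 0.0159). Of 8 endothelial markers, 6 were also called lower there, and 7 did not overlap between the layers. Their summed level, in outer samples mostly Kdr, did overlap. The part of these markers in the Acvrl1 difference was not tested. Both calls ended within the slide that held both groups (limma adjusted p = 0.0516 for Bmpr1b and 0.0519 for Acvrl1), without outer replicate 3 (0.0689 for both) and without intermediate replicates 1 (0.0543 for Bmpr1b and 0.061 for Acvrl1) and 3 (0.0821 and 0.071). That of Acvrl1 also ended with replicate and slide blocks together (0.0906).

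None of the 9 Smads and Smad regulators was called in limma (median -0.05), and 1 had an unadjusted p under 0.05, beside 21.1% of all genes. Smad5 and Smad4, the brightest of them, differed by 0.02 and 0.11 (limma adjusted p = 0.947 and 0.758), and the groups overlapped for all 9. Of 9 tested of 11 target genes, Id4 was called (median 0.38). Id4, of the family of helix-loop-helix inhibitors that BMP signals induce, stood at 1.06 ± 0.49 in outer samples and -3.30 ± 0.76 in intermediate samples (SD, n = 3 each). The difference was 4.36 (limma adjusted p = 0.00739), measured on 2 of 3 intermediate arrays, and normexp gave 2.37. The other Id genes of the list, Id1, Id2 and Id3, differed by 0.27, 0.59 and -0.62 and were not called (limma adjusted p = 0.674, 0.256 and 0.142). Every outer sample was below every intermediate sample for Id3. When replicate numbers formed a block, 5 more genes of the lists were called by limma, named here after their values were seen. Gdf3 (0.90) and Bmp8a (0.88) among the ligands, the protease Tll1 (0.81) and the co-receptor Rgmb (0.99) were then higher in the outer interzone, with adjusted p = 0.0419, 0.0338, 0.0447 and 0.0487, and the target gene Hey1 was lower (-2.19, limma adjusted p = 0.0287). With slide as a block, limma called 3 antagonists lower in the outer interzone, Chrdl1 (-2.30, adjusted p = 0.0292), Kcp (-1.58, adjusted p = 0.0186) and Nbl1 (-1.16, adjusted p = 0.0443), which were also picked out by their values. With normexp, Nbl1 (-0.89, limma adjusted p = 0.0264) and the target gene Id3 (-0.65, limma adjusted p = 0.0418) were called lower in the outer interzone, and with median scaling so was the co-receptor Eng (-1.17, limma adjusted p = 0.0433). Each list's share in the main fit is read beside the 4.06% of all genes called, and its median beside 0.10 over all genes. Calls in the other fits stand beside 9.08% of all genes with the replicate block and 6.76% with slide as a block. They stand beside 5.11% with normexp and 6.07% with median scaling. Limma's unadjusted p in the main fit was under 0.05 for 4 of 8 other ligands and 8 of 15 antagonists and modulators. The same held for 4 of 11 receptors and co-receptors and 4 of 9 target genes, beside 21.1% of all genes.

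**Figure D4:**
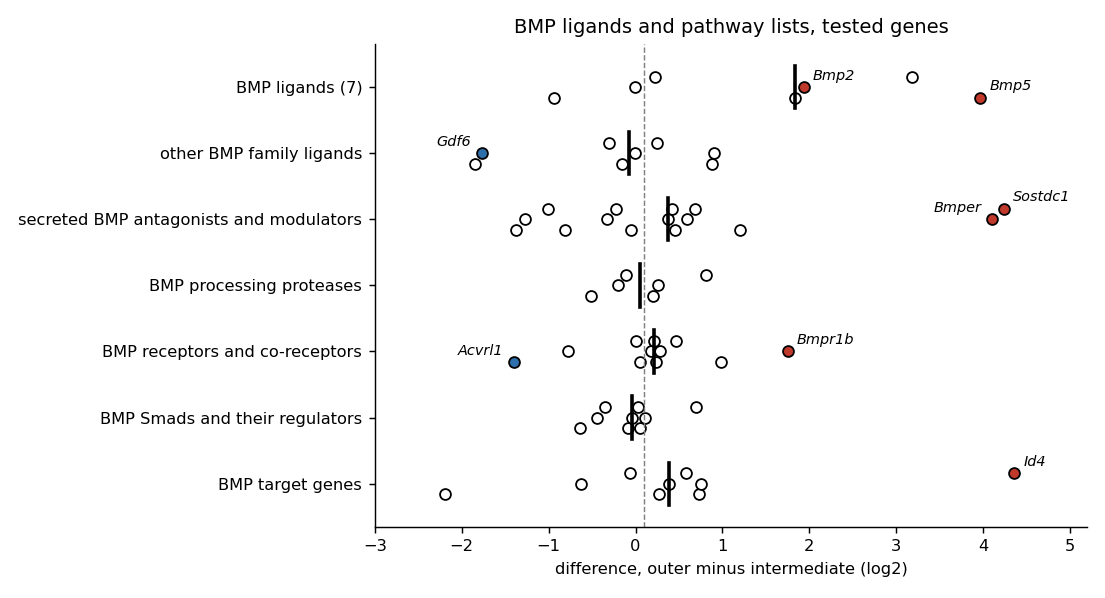
Difference of each tested gene, outer minus intermediate interzone on the log2 scale, for the 7 BMP ligands and 6 lists of pathway genes; filled points (named) have a limma adjusted p of at most 0.05, the thick bars are list medians and the dashed line is the median of all genes, 0.10. The called genes are Bmp2 and Bmp5 among the ligands, and Gdf6, Sostdc1, Bmper, Bmpr1b, Acvrl1 and Id4 in the lists.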

How the data were processed

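A low-input kit served to amplify and Cy3-label the total RNA, per the labels' protocols. Each deposited scanner file holds a processed signal intensity per spot, background-subtracted and detrended, and made with version 10.7.3.1 of Feature Extraction, per the file headers. Partek 6.11.0321 is named, with no role, per the submitters' processing notes. The authors' deposited series table holds the same intensities divided by each array's median.

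Spots of a probe were averaged on the log2 scale without outlier-flagged spots, from 59305 non-control spots. A probe had to be well above background in all of its spots. Symbols were updated through RefSeq accessions (26762 of 28390 matched, table of assembly GRCm38.p6, used for names only). The 75th percentile of each array was subtracted, and the brightest tested probe stood for a gene. The test of outer against intermediate samples was limma's (version 3.58.1, R 4.3.3; lmFit and eBayes, two-sided), and ratios were tested with an exact permutation test in SciPy 1.17.1. Fitting code was tested on simulated data. The number of arrays limits the precision.

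The labels do not say that equal replicate numbers mark 1 embryo. Deviations of same-numbered samples from their group means correlated at 0.563, 0.480 and 0.372 across genes, all above the limit of 0.1 set for pairing. Among samples with unlike numbers, outer replicate 2 and intermediate replicate 3 also passed that limit, at 0.114, and the lowest value was -0.533. Passing it therefore does not by itself mark a pair. Values with the replicate number as a block are given where a call changes. The main fit had no block.

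Members, lists and naming rule (up to 4 called genes per list, or the 2 brightest; the 3 nearest patterns of each called member) were chosen with earlier results of these data known. Alternatives were normalization, background correction, filters, probe choice, replicate and slide blocks, and omission of each array. No member had a promoter or protein sequence printed.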

Additional observations from a re-analysis of the deposited data

How the results depend on the processing

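Across the alternatives, Bmp5 was called in 17 of 18 fits and Bmp2 in 14 of 19, and both were higher in the outer interzone in every one. Scaling to the array median and the authors' deposited values gave the same fit, and both are in these counts. When no filter was set on dim probes, limma called 0 of 35077 genes (4268 at unadjusted p under 0.05), and Bmp5 and Bmp2 missed with unchanged differences of 3.97 and 1.94 (limma adjusted p = 0.0786 and 0.133). Bmp5 and Bmp7 could not be fitted with the filter on all 6 arrays, which called 459 genes and 1 ligand. Within the slide that holds both groups, where outer replicate 1 is the lone outer array and is taken to vary like the intermediate ones, 1320 genes and 1 ligand were called, and Bmp2 differed by 1.53. A slide block gave 1217 called genes and quantile normalization 445.

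The replicate block called 1634 genes and 4 ligands, among them Bmp7 (3.18) and Gdf10 (1.84). With the replicate block and slide block together Bmp7 differed by 4.51 (limma adjusted p = 0.0222), which rests on the replicate 1 samples, and Gdf10 was not called (1.86, limma adjusted p = 0.0676). The block changed no other ligand's call. Bmp4 was called with normexp (-0.94) and with scaling to the array median (-1.33), which is also the scale of the deposited values. Its sign held in all 19 fits. Bmp6 turned to -0.16 under scaling to the array median. Bmp3 turned to 0.036 with normexp, 0.021 with both blocks, 0.40 without outer replicate 1, 0.34 without intermediate replicate 2 and 0.065 without intermediate replicate 3, none of them called. The ratio of Bmp5 to Bmp7 turned to -0.056 with normexp. The cause of these changes was not tested.

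Leaving out single arrays gave between 66 and 1121 called genes (90 without outer replicate 3, 1121 without outer replicate 2, and 137, 380 and 66 without intermediate replicates 1, 2 and 3) and between 1 and 2 called ligands. The differences ranged over 1.71 to 2.14 for Bmp2, 3.73 to 4.11 for Bmp5, 2.21 to 3.90 for Bmp7, 1.34 to 2.45 for Gdf10, -1.13 to -0.78 for Bmp4, 0.061 to 0.54 for Bmp6 and -0.43 to 0.40 for Bmp3. Counts for the 6 pathway lists under these alternatives were added after seeing the data. Signal over background limits Bmp5 and Bmp7, which 2 of 3 intermediate arrays measured.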
